A study of Octopus bimaculoides with 16 samples.

Results

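The genes described here are eye genes of Octopus bimaculoides, the California two-spot octopus, whose RNA was also found in another dissected tissue. Members were chosen by the deposited levels themselves. A gene belonged to the set when it had 10 CPM or more in eye (CPM, reads scaled to a library total of 1000000). It also had to lie at least 4-fold, on CPM + 1, above each of optic lobe, olfactory organ, mantle skin (called skin below), statocyst, sucker rim cells and whole sucker cup. The highest of these 6 had to reach 1 CPM, and that tissue is called the second tissue. Of 15842 genes in the table, 163 were members. They were 2.01% of the 8121 genes with 10 CPM or more in eye, and the remaining 95 eye genes past the 4-fold rule were under 1 CPM everywhere else. All eye genes past that rule together were 3.18% of those 8121. The rule used every library, so levels, ratios and second tissues describe the members, and none of these counts is a test.

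Each of 6 tissues was measured in 1 library: eye, optic lobe (labelled as brain tissue), olfactory organ, skin of the mantle, statocyst, and cells dissociated from sucker rims. Whole sucker cups of arm R1 had 2 libraries, automated and manual (the cup libraries), and entered the rule as their mean. The labels name no animal, age, sex, strain or treatment, no replicate of any tissue beyond the cup, and no animal shared between tissues. Depth ranged from 4782744 reads in skin to 36916825 in rim cells, with 12241705 in eye, so that 1 CPM stood for 4.78 reads in skin and 36.9 in rim cells. Intervals are 95% intervals of counting error only, and say nothing of variation between animals.

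As background, the octopus eye is a camera eye. A lens rich in soluble crystallin proteins focuses light on a retina of rhabdomeric photoreceptors, which carry opsin in microvilli and signal through a phospholipase C cascade. The photoreceptor axons end in the optic lobe. The eye also holds an iris, screening pigment, muscle, connective tissue and epithelium, kinds of tissue that other organs contain too. The statocyst senses gravity and turning with ciliated hair cells. The gene identifiers are matched to no functional name in the tables used here, so the eye label could not be set against opsin, crystallin or other defining markers, and no role is given to any member. In bulk tissue, fewer cells of a type and less RNA per cell cannot be told apart.

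The members were abundant in eye and ranged widely elsewhere. Their eye level ran from 10.2 to 26960 CPM, with a median of 180 CPM, beside 39.9 CPM for all genes at 10 CPM or more in eye. Together they took 12.3% of the eye reads (12.28 to 12.32%, Wilson interval). They took 0.391% of the reads of statocyst, 0.297% of olfactory organ, 0.261% of skin, 0.253% of rim cells, 0.244% and 0.254% of the automated and manual cup libraries and 0.143% of optic lobe. The level in the second tissue ran from 1.05 to 983 CPM, with a median of 8.44 CPM. The median log2 ratio of eye to the second tissue, on CPM + 1, was 3.31, with a range from 2.02 to 12.73. It passed 16-fold for 59 members and 256-fold for 11.

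Detection elsewhere took forms from a trace in 1 tissue to sizeable levels in all. A second tissue at 10 CPM or more was found for 75 members, and at 100 CPM or more for 15, where the highest of the 6 reached these levels for 99.2% and 45.2% of the 7863 other genes with 10 CPM in eye and 1 CPM elsewhere. All 6 other tissues reached 1 CPM for 47 members, which is 28.8%, against 89.9% of those other genes. The second tissue was the sole one at 1 CPM or more for 30 members (18.4%, against 0.356% of the other genes). Olfactory organ reached 1 CPM for 123 of the 163 members, statocyst for 120, whole sucker cup for 105, skin for 103, rim cells for 94 and optic lobe for 62. For the other genes these shares were 98.8%, 97.9%, 98.4%, 98.1%, 97.5% and 92.5% in the same order. Thus optic lobe held the fewest members. It had no read of 60 of them (36.8%, against 3.38% of the other 7863 genes), where the limit of 3 reads was 0.558 CPM.

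**Figure D1:**
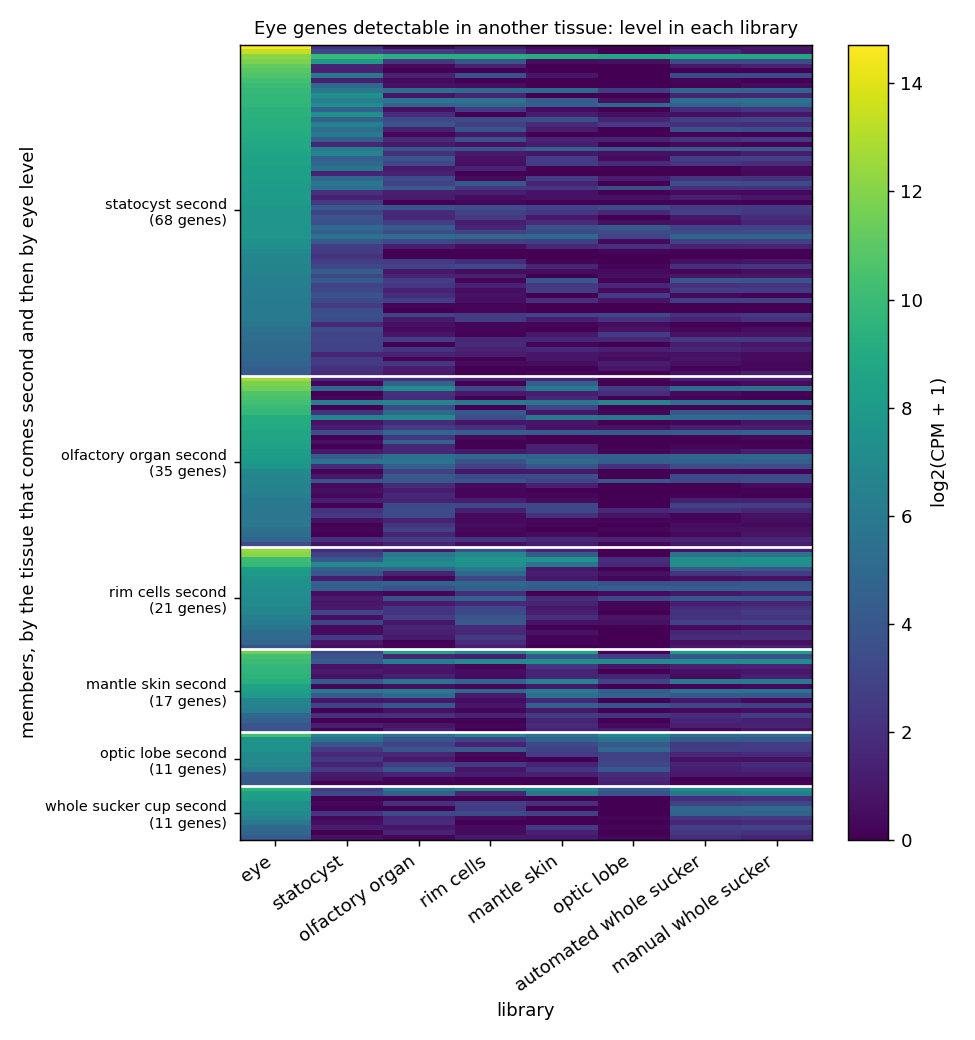
Level of each of the 163 members (rows) in the 8 libraries (columns), as log2(CPM + 1), ordered by second tissue and then by eye level. Eye is the brightest column throughout, as the rule requires, and optic lobe is dark for many genes, 60 of which had no read there.

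Statocyst came second for 68 members (41.7%), olfactory organ for 35 (21.5%), rim cells for 21 (12.9%), skin for 17 (10.4%), and optic lobe and whole sucker cup for 11 each (6.75%). The same ranking over the 7863 other genes gave statocyst 39.8%, optic lobe 19.4%, olfactory organ 18.4%, rim cells 11.2%, skin 9.41% and whole sucker cup 1.77%. The statocyst share of the members was thus close to that background. Optic lobe took 6.75% of members beside 19.4% of the other genes, and whole sucker cup 6.75% beside 1.77%. Among the 187 of those genes that were 2- to 4-fold higher in eye, just short of the rule, statocyst was highest for 50.3%, optic lobe for 9.63% and whole sucker cup for 6.42%, the last close to the members' share. With median-of-ratios size factors, optic lobe was second for 23 members of a set of 185, so this share depends on the scaling.

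**Figure D2:**
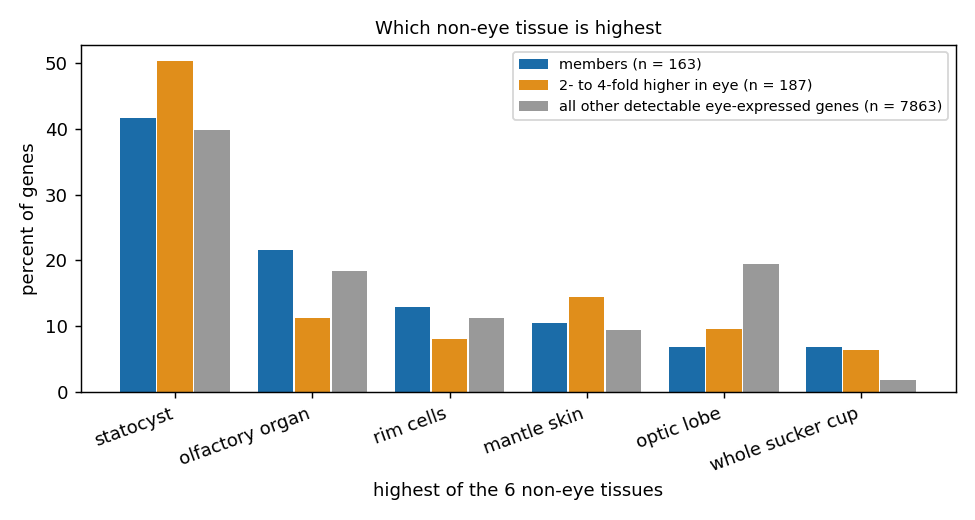
Percent of genes (vertical axis) for which each non-eye tissue (horizontal axis) was the highest of the 6, for the 163 members, for the 187 genes 2- to 4-fold higher in eye, and for all 7863 other genes with 10 CPM in eye and 1 CPM elsewhere. The last set includes the 187. Statocyst leads in all 3 sets, and optic lobe stands at 19.4% of the other genes and 6.75% of the members.

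The second tissue was often not far ahead of the next one. On CPM + 1, these differed by less than 2-fold for 113 members. Some of these were low genes with a larger ratio of reads, such as LOC106878312 at 2.88-fold (1.83 to 4.56). The exact interval of the ratio of reads, without pseudocount, lay above 1 for 105 members. That interval does not allow for having picked the highest of 6. By that measure the order was set apart from counting error for 55 of the 68 statocyst members, 18 of 35 for olfactory organ, 14 of 21 for rim cells, 7 of 11 for whole sucker cup, 5 of 11 for optic lobe and 6 of 17 for skin. A lower counting limit of at least 1 CPM in the second tissue was reached by 153 members. Skin, the shallowest library, reached it for 11 of its 17.

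**Figure D3:**
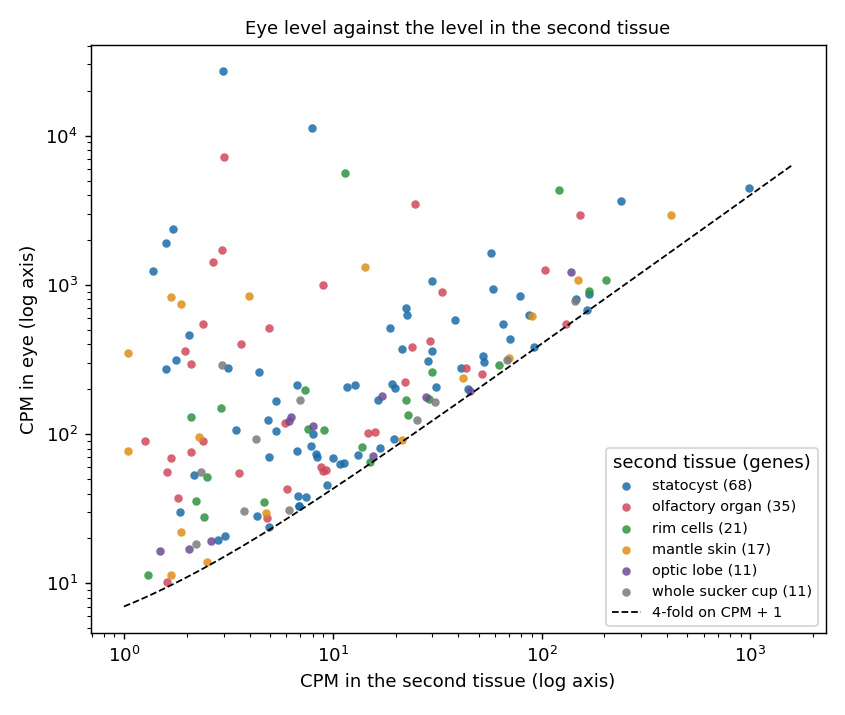
CPM in eye (vertical, log axis) against CPM in the second tissue (horizontal, log axis), 1 point per member, coloured by second tissue. The dashed line is the 4-fold limit on CPM + 1. Members spread from the line up to LOC106878312, at 26960 CPM in eye and 2.97 CPM in statocyst.

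Genes with statocyst second included the most abundant members and the ones most clearly shared with 1 other organ. Their eye levels ran from 19.5 to 26960 CPM (median 216 CPM) and their statocyst levels from 1.38 to 983 CPM (median 11.0 CPM). In 18 of the 68 (26.5%), statocyst itself stood at least 4-fold, on CPM + 1, above the next tissue. The share was 15.2% of the 3128 other genes with statocyst highest. On this measure a second tissue at a low level can miss the limit despite a larger ratio of reads. With a pseudocount of 5 CPM the count was 7. For the remaining second tissues together the count was 3 of 95 members. These were 2 of 35 in olfactory organ, against 1.86% of other genes with olfactory organ highest, and 1 of 11 in whole sucker cup, against 4.32%. The 18 genes had 45.6 to 3622 CPM in eye (median 465 CPM) and 3.43 to 240 CPM in statocyst (median 41.3 CPM). Their next tissue had a median of 1.35 CPM and was under 1 CPM for 9 of them. Optic lobe had no read of 10 of the 18 and was under 1 CPM for 16. Over all 163 members it had no read of 60 (36.8%) and reached 1 CPM for 62 (38%). The 18 were also chosen for low levels in every tissue below statocyst.

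LOC106874065 was the clearest of these by the gap below statocyst. It had 873 CPM in eye and 168 CPM in statocyst, 1.81 CPM in rim cells, 1.69 and 1.93 CPM in the automated and manual cup libraries, 0.771 CPM in olfactory organ, and no read in skin or optic lobe. Eye and statocyst were high and every other library was under 2 CPM. The ratio of eye to statocyst reads was 5.19 (4.97 to 5.42), and that of statocyst to rim cells 92.7 (72.7 to 120.0).

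LOC106867290 had 679 CPM in eye and 164 CPM in statocyst, which put it just inside the 4-fold limit, with a log2 ratio of 2.04. Olfactory organ had 2.59 CPM, skin 1.25 CPM, optic lobe 0.558 CPM, the cup libraries 0.507 and 0.844 CPM and rim cells 0.0813 CPM. The eye to statocyst ratio of 4.13 (3.95 to 4.32) is the smaller step here, and the statocyst to olfactory organ ratio of 63.3 (45.8 to 90.1) the larger. Statocyst thus lay nearer to eye than to any other tissue.

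LOC106873084 had 3622 CPM in eye, 240 CPM in statocyst, 14.5 CPM in rim cells, 9.13 and 9.77 CPM in the cup libraries, 4.07 CPM in olfactory organ, 0.558 CPM in optic lobe and 0.418 CPM in skin. It differed from the other two in a wider step from eye to statocyst, 15.1-fold (14.6 to 15.6), and in higher levels in rim cells and in both cup libraries.

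**Figure D4:**
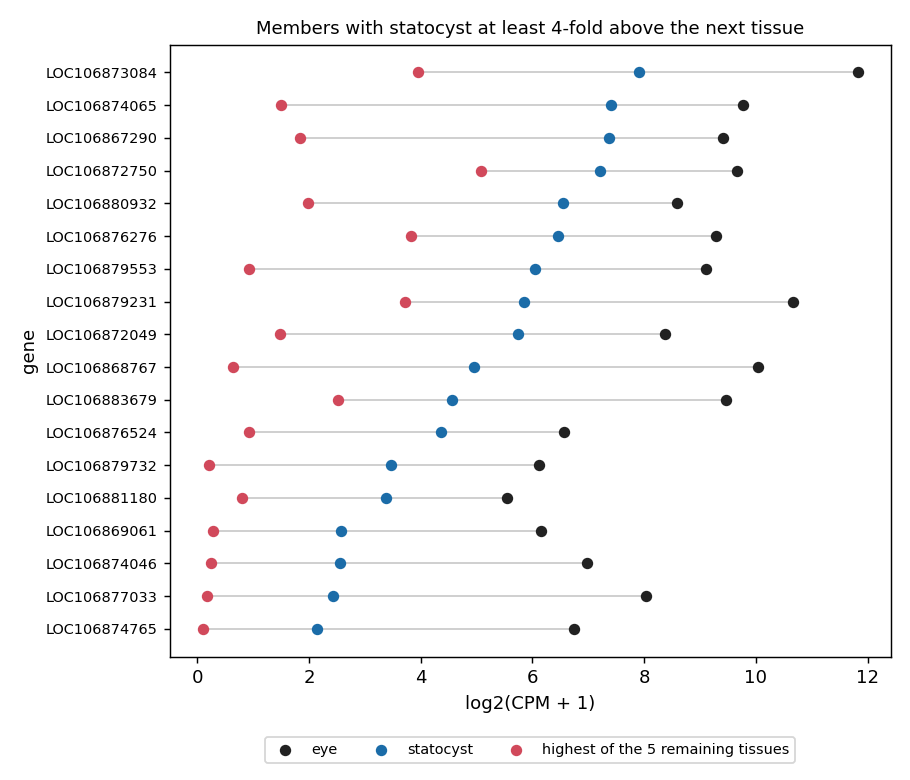
The 18 members with statocyst at least 4-fold above the next tissue (vertical axis), with log2(CPM + 1) in eye (black), statocyst (blue) and the highest of the 5 remaining tissues (red). For each gene the red point lies at least 2 units left of the blue one and the black one at least 2 units right of it, by the choice of genes.

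Some other members with statocyst second had under 10 CPM in statocyst. LOC106878312, which led the eye library in abundance, had 26960 CPM there. It had 2.97 CPM in statocyst, 1.03 CPM in rim cells, 0.507 and 0.965 CPM in the cup libraries, 0.209 CPM in skin, 0.140 CPM in olfactory organ and no read in optic lobe. LOC106868441 had 11172 CPM in eye, 7.98 CPM in statocyst, 4.77 CPM in olfactory organ, 3.41 CPM in rim cells, 2.28 and 0.844 CPM in the cup libraries, 0.836 CPM in skin and no read in optic lobe. Both were detectable in several tissues at under 0.1% of their eye level. LOC106879057, with 2376 CPM in eye, had 1.71 CPM in statocyst and 1.63 CPM in rim cells. The order of these tissues is undecided, with a 1.05-fold difference (0.639 to 1.70).

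LOC106878845 was the opposite case. It had 4439 CPM in eye and was also abundant everywhere else, with 983 CPM in statocyst, 658 CPM in rim cells, 609 CPM in olfactory organ, 559 CPM in skin, 499.9 and 493 CPM in the cup libraries and 459 CPM in optic lobe. It was the highest member in each of the 6 other tissues. Its eye to statocyst ratio was 4.52 (4.44 to 4.60). Like it, 12 members reached 10 CPM in all 6 other tissues (7.36%, against 61.7% of the other 7863 genes). Their log2 ratios to the second tissue ran from 2.17 to 3.80. These genes were higher in eye and present in every tissue, but not all at a common level outside eye. LOC106872750 was also among the 18 with statocyst at least 4-fold above the next tissue, at 146 CPM against 32.9 CPM in optic lobe. LOC106873093 had 18.5 CPM in statocyst and 150 CPM in skin.

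Genes with olfactory organ second had the largest median log2 ratio of the 6 groups, 4.12, and the lowest median share of the eye level in the second tissue, 4.95%. LOC106871441 had 7171 CPM in eye, 3.01 CPM in olfactory organ, 2.18 CPM in statocyst, 1.88 CPM in skin, 1.52 CPM in rim cells, 1.44 and 1.21 CPM in the cup libraries and 0.186 CPM in optic lobe. Its trace was of like size in most libraries, and olfactory organ exceeded statocyst by 1.39-fold (0.860 to 2.25). LOC106869359 had far more outside the eye. It had 2940 CPM in eye, 153 CPM in olfactory organ, 66.3 CPM in skin, 33.7 and 42.2 CPM in the cup libraries, 27.4 CPM in statocyst, 7.88 CPM in rim cells and 5.21 CPM in optic lobe. Olfactory organ exceeded skin by 2.30-fold (2.04 to 2.60). LOC106876685 had 548 CPM in eye, 131 CPM in olfactory organ and 109 CPM in statocyst. Its eye to olfactory organ ratio, 4.19 (3.98 to 4.41), was close to the limit.

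Olfactory organ and skin were also compared as a pair. Skin ranked next for 13 of the 35 olfactory members (37.1%), against 40.3% of the 1450 other genes with olfactory organ highest, a share near the background. Olfactory organ ranked next for 8 of the 17 skin members (47.1%), against 32.6% of the 740 other genes with skin highest. In 5 members both tissues reached 1 CPM and stood at least 2-fold above all the rest, on CPM + 1, which is 3.07% of members, against 0.140% of the other genes (11 of 7863). A pseudocount of 5 CPM gave 2, and thinning all libraries to the depth of skin gave 3. This pair had the largest share of members among all pairs of the 6 tissues, compared in the same way. Olfactory organ with statocyst (2.45% against 0.623%) and skin with whole sucker cup (1.84% against 0.382%) were also above the other genes. Optic lobe with statocyst went the other way (1.23% against 2.39%), and some pairs held no member. Of the 5 genes high in both olfactory organ and skin, 4 lie within a run of 6 eye genes in the reference gene order, described next.

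The run comprises, in order, LOC106875831, LOC106875839, LOC106875836, LOC106875838, LOC106875834 and LOC106875837, with no other measured gene placed between them. LOC106875839 had 3467 CPM in eye, 24.7 CPM in olfactory organ (353 reads) and 19.9 CPM in skin (95 reads). It had 0.198 CPM in statocyst, 0.169 and 0.362 CPM in the cup libraries, and no read in optic lobe or rim cells. LOC106875836 had 995 CPM in eye, 8.97 CPM in olfactory organ, 7.53 CPM in skin, 1 read in statocyst and none in the other 4 libraries. Both genes were thus present in the same 2 tissues and nearly absent from the deepest library, that of rim cells.

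LOC106875837 had 1417 CPM in eye, 2.66 CPM in olfactory organ and 2.09 CPM in skin. LOC106875834 had 359 CPM in eye, 1.96 CPM in olfactory organ and 1.46 CPM in skin. Elsewhere these genes had at most 4 reads in any library. The ratio of olfactory organ to skin lay from 1.19 to 1.34 in the 4 members, but each counting interval included 1. The widest were 0.572 to 3.64 for LOC106875834 and 0.623 to 2.87 for LOC106875837. Neither the order of the 2 tissues nor the likeness of the ratios is thus resolved. Relative to eye, however, the olfactory level was 0.902% for LOC106875836, 0.714% for LOC106875839, 0.546% for LOC106875834 and 0.188% for LOC106875837, so it was not a fixed share of the eye level. The remaining genes of the run, LOC106875831 with 96.1 CPM and LOC106875838 with 62.1 CPM in eye, were without reads in the other 7 libraries. Whether these neighbours are similar enough in sequence for reads to be divided among them was not tested.

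**Figure D5:**
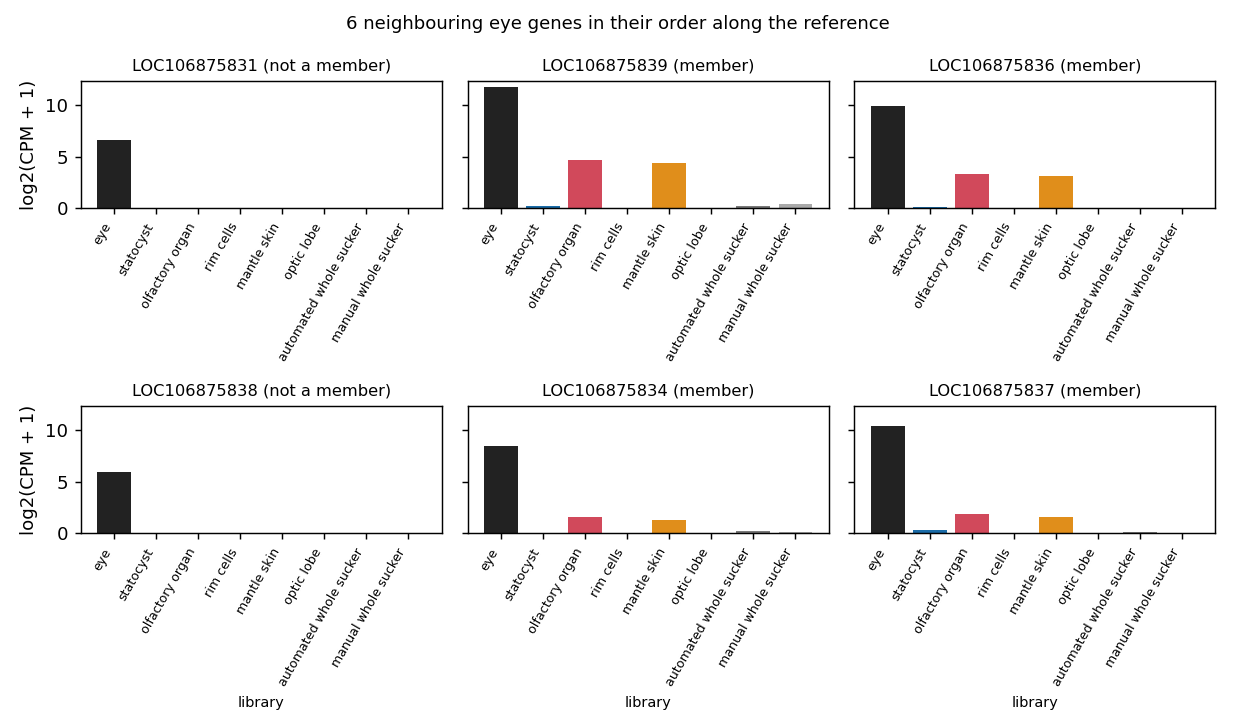
Level, as log2(CPM + 1), of the 6 neighbouring eye genes in each library (bars), 1 panel per gene in reference order. The 4 members share bars in olfactory organ and skin with next to none in rim cells or optic lobe, and the other two show eye alone.

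Several members lay side by side in the reference gene order. Neighbours were taken among measured genes only, so an unmeasured gene may lie between them. Of 150 members placed on a reference chromosome, 18 (12%) lay directly beside another member. The share was 2.09% for 7322 other genes with 10 CPM in eye and 1 CPM elsewhere. Within 5 measured genes the shares were 24% and 9.997%. Counting eye genes under 1 CPM elsewhere as well, 23 of the 150 members (15.3%) had an eye gene as direct neighbour, against 225 of the 7322 other genes (3.07%). The members gave 13 runs, 8 of them with at least 2 members.

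Some of these neighbours had closely alike profiles and others did not. Whether they are similar enough in sequence for reads to be divided among them was not tested. LOC106882193 and LOC106882199 had 363 and 311 CPM in eye, 29.9 and 28.5 CPM in statocyst, 8.20 and 8.97 CPM in olfactory organ, 5.02 and 5.44 CPM in skin and 0.542 and 0.271 CPM in rim cells. In optic lobe they had 2.42 and 1.303 CPM, and in the cup libraries 3.80 and 2.65 CPM for the first and 3.55 and 3.50 CPM for the second. LOC106874065 was the neighbour of LOC106873084, and both were among the 18 with a distinct statocyst level. So were the neighbours LOC106879553 and LOC106879732, with 547 and 68.7 CPM in eye and 65.5 and 10.02 CPM in statocyst. Neither exceeded 0.894 CPM in any other library.

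LOC106881751 and LOC106881752 were neighbours with olfactory organ second. They had 401 and 42.9 CPM in eye and 3.65 and 6.03 CPM in olfactory organ, and no read in skin. The gene lower in eye was thus the higher of them in olfactory organ. Of the adjacent LOC106870818 and LOC106870779, the first had 291 CPM in eye and 62.7 CPM in rim cells, while the second had 92.8 CPM in eye and 0.325 CPM in rim cells, with whole sucker cup second at 3.89 and 4.70 CPM. LOC106882611 had 742 CPM in eye and 1.88 CPM in skin, and its neighbour LOC106883207 had 131 CPM in eye and 6.33 CPM in optic lobe. LOC106872587 and LOC106872581 had 35.5 and 19.2 CPM in eye, with rim cells (2.22 CPM) and optic lobe (2.61 CPM) second.

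The remaining runs joined 1 member to eye genes under 1 CPM elsewhere. LOC106875375, with 1238 CPM in eye and 1.38 CPM in statocyst, lies beside LOC106880605, with 2452 CPM and 0.527 CPM. LOC106872010, with 272 CPM in eye and 1.58 CPM in statocyst, lies beside LOC106872011, with 274 CPM and 0.593 CPM. LOC106881407 and LOC106871002 each had olfactory organ second, at 1.68 and 2.38 CPM, and their neighbours LOC106881409 and LOC106870944 had 0.0701 and 0.841 CPM there. LOC106876418, with whole sucker cup second, lies between LOC106876423 and LOC106876424, with 39.9 and 178 CPM in eye and at most 6 reads in any other library. LOC106872010 and LOC106872011 were nearly equal in eye and lay on either side of the 1 CPM limit.

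Genes with rim cells second ranged from genes abundant in several tissues to traces. LOC106875307 had 4320 CPM in eye, 122 CPM in rim cells, 55.7 CPM in olfactory organ, 46.6 and 49.9 CPM in the cup libraries, 18.0 CPM in skin, 5.80 CPM in statocyst and no read in optic lobe. LOC106877933 had 1073 CPM in eye, with 203 CPM in rim cells, 195 CPM in skin, 157 and 181 CPM in the cup libraries and 95.8 CPM in olfactory organ. Statocyst had 15.4 CPM of it and optic lobe 2.79 CPM. LOC106867199 had 914 CPM in eye, 169 CPM in rim cells, 152 and 149 CPM in the cup libraries, 143 CPM in olfactory organ and 133 CPM in statocyst, with 51.9 CPM in skin and 2.23 CPM in optic lobe. The 3 genes had a low level or none in optic lobe, where the median of all 163 members was 0.372 CPM.

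LOC106870488 had the largest ratio of the rim group. It had 5613 CPM in eye, 11.5 CPM in rim cells, 2.84 CPM in statocyst, 1.88 CPM in skin, 0.981 CPM in olfactory organ, 0.592 and 1.57 CPM in the cup libraries and no read in optic lobe. Rim cells exceeded statocyst by 4.05-fold (2.96 to 5.68), while both cup libraries lay below statocyst.

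Skin members ranged from broad surface genes to a few reads. LOC106879046 had 2942 CPM in eye, 416 CPM in skin, 379 CPM in olfactory organ, 307 and 300.0 CPM in the cup libraries and 123 CPM in rim cells. It had 8.18 CPM in statocyst and 0.186 CPM, a single read, in optic lobe. The surface tissues were thus high and both statocyst and optic lobe low. LOC106873093 had 1087 CPM in eye and between 133 and 150 CPM in skin, optic lobe, rim cells and the cup libraries, with 76.4 CPM in olfactory organ and 18.5 CPM in statocyst. LOC106879666 had 1314 CPM in eye, 14.2 CPM in skin, 13.9 CPM in statocyst, 12.9 and 11.0 CPM in the cup libraries, 5.40 CPM in optic lobe, 1.61 CPM in olfactory organ and 1.19 CPM in rim cells. LOC106878165, with 835 CPM in eye, rested on 8 reads in skin (1.67 CPM, 0.722 to 3.30).

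Whole sucker cup was the tissue with 2 libraries, whose spread may be technical, since nothing says that they came from separate suckers or animals. Among the 34 members with 10 CPM or more there, the automated and manual values differed by a median of 1.09-fold and by more than 1.3-fold for 2. LOC106869694 had 786 CPM in eye, 145 and 144 CPM in the cup libraries, 126 CPM in skin and 112 CPM in rim cells, with 57.4 CPM in olfactory organ, 23.1 CPM in optic lobe and 5.21 CPM in statocyst. LOC106874353 had the widest spread, 54.2 and 82.2 CPM, against 316 CPM in eye and 55.6 CPM in skin. Its log2 ratio of 2.19 fell below the limit, to 1.93, without the automated library.

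LOC106876418 had 292 CPM in eye and 33 and 26 reads in the automated and manual libraries, 2.79 and 3.13 CPM. All 5 remaining tissues had no read of it. It was thus found in eye and in both cup libraries alone, and the rim cell library, the deepest of the set, has a limit of 3 reads at 0.0813 CPM. LOC106869653, chosen after its values were seen, had 165 CPM in eye, 28.4 and 33.3 CPM in the cup libraries, 5.12 CPM in rim cells, 1 read in statocyst and none in optic lobe, olfactory organ or skin. A second gene so chosen, LOC106883668, had 384 CPM in eye, 24.0 CPM in olfactory organ (342 reads), 9 reads in statocyst and none in the other 5 libraries. Together with LOC106881752, these were the 3 members outside the statocyst group whose second tissue stood at least 4-fold above the next.

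Optic lobe, where the photoreceptor axons end, was second for 11 members. On CPM + 1, none of them stood at least 4-fold above the next tissue, against 16.8% of the 1528 other genes with optic lobe highest. That limit is harder to reach at low levels. LOC106869020, chosen after its values were seen, had 1.49 CPM in optic lobe and 0.103 CPM in whole sucker cup. Without the pseudocount, its ratio was 15.0 (2.99 to 145). LOC106871981 had 1212 CPM in eye, 138 CPM in optic lobe, 114 CPM in statocyst, 102 CPM in rim cells, 50.4 CPM in skin, 44.3 CPM in olfactory organ and 42.9 and 37.5 CPM in the cup libraries. LOC106882384 had 194 CPM in eye, 45.6 CPM in optic lobe and 41.5 CPM in statocyst, and fell to a log2 ratio of 1.61 with median-of-ratios size factors. LOC106879722 had 180 CPM in eye, 17.3 CPM in optic lobe and 13.3 CPM in statocyst. In LOC106871981, LOC106882384 and LOC106879722, statocyst was close behind optic lobe.

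LOC106876061 stood further apart, with 177 CPM in eye, 27.9 CPM in optic lobe and 16.2 CPM in rim cells, where optic lobe exceeded rim cells by 1.72-fold (1.43 to 2.06). LOC106878585 had 123 CPM in eye, 6.14 CPM in optic lobe and 4.02 CPM in statocyst, at most 1.12 CPM in any other library and no read in skin. LOC106868923 had 113 CPM in eye, 8.00 CPM in optic lobe and 5.75 CPM in olfactory organ. The largest ratio in this group, 20.6-fold (14.7 to 29.9), was that of LOC106883207.

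The share of the eye level found elsewhere was compared among the most abundant eye genes. At 1000 CPM or more in eye there were 22 members and 20 eye genes under 1 CPM elsewhere. Among the 20, the level in statocyst was at most 0.0719% of that in eye, and 5 had no statocyst read. Among the 22 members, the statocyst level ran from 0 to 22.1% of the eye level, with a median of 0.206%. In optic lobe, 11 of the 22 and 14 of the 20 had no read. The limit of 1 CPM that separates the 22 from the 20 is part of the rule, so the difference between these sets is not a finding. The second tissue was under 1% of eye for 23 members and 10% or more for 74.

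Values just inside and just outside the limits of the rule were close. Next to the 4-fold limit, LOC106878589 (log2 ratio 2.02) and LOC106884153 (2.03) were members, while LOC106874132 (1.998), LOC106880339 (1.99) and LOC106868038 (1.98) were not. LOC106868038 had 3149 CPM in eye and 798 CPM in optic lobe, more in optic lobe than any member. At the eye limit, LOC106871290 (10.2 CPM), LOC106869979 (11.4 CPM) and LOC106872233 (11.4 CPM) were members, and LOC106874164 (9.80 CPM) was the sole gene outside it that met the other conditions. At the limit of 1 CPM elsewhere, LOC106875180 and LOC106882464 were inside with 5 skin reads each (1.05 CPM), and LOC106881475 with 1.26 CPM in olfactory organ. LOC106869377 and LOC106881924 (0.923 CPM each in statocyst) and LOC106867817 (0.911 CPM in olfactory organ) were outside. Within 5-fold of the second tissue lay 26 members, and 20 members had under 2 CPM in it.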

How the data were processed

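Bulk messenger RNA was measured in 8 libraries from 7 tissues; the labels list 16 samples because each library was run on 2 lanes. The authors deposited log2(CPM + 1) values for 15842 genes, 1 column per library, a unit read from the values: after inversion each column summed to 1000000 and 100% of values were whole multiples of 1 read (tolerance 0.01 reads). Trim Galore and kallisto are named in the submitters' processing notes; for versions, genome build and the merging of lanes: not given in the sources used here. Whole reads were recovered from the multiples, with kallisto estimates possibly rounded beforehand.

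The rule was applied to CPM with a pseudocount of 1 CPM. Levels carry exact Poisson and ratios exact Clopper-Pearson 95% intervals, without pseudocount and with the reads of both whole sucker libraries pooled; shares of reads carry Wilson intervals. No significance test between tissues was made, since eye has 1 library. The selection was tested on simulated data. These held planted eye genes, otherwise equal tissues and counting error only, so they say nothing of variation between animals or of genes near the limits. Of the 163 members, 154 were found in the reference gene table of assembly ASM119413v2 and 150 had a chromosome; none has a functional name there, so the name-based lists could not be applied, and protein and promoter comparisons were not run. The table's order was used for neighbours only. Members, lists and comparisons were chosen with earlier results of these data known. Named genes are, for each second tissue, those highest in eye, highest in the second tissue and of largest ratio (4, 4 and 3 genes for statocyst and optic lobe, 2, 2 and 1 for the others), those next to a limit, and those in runs of neighbours. Python 3.11.15 with scipy 1.17.1 was used.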

Additional observations from a re-analysis of the deposited data

How the results depend on the processing

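The count of 163 members stayed between 135 and 188 under every alternative tried, and the statocyst and the pooled surface tissue counts (olfactory organ, rim cells, mantle skin and whole sucker cup) also stayed within 1.5 times of 68 and 84. Without the automated or the manual whole sucker library there were 162 and 163 members. The 11 members with optic lobe second became 6 with a pseudocount of 5 CPM, by which low genes lose most of their ratio, and 23 with median-of-ratios size factors, which shifted log2 values by 0.47 in optic lobe, -0.39 in statocyst, -0.23 in olfactory organ, -0.11 in rim cells and 0.16 and 0.12 in the whole sucker libraries relative to CPM. With those factors 139 of the 163 members kept their second tissue. Counting neighbours within 5 genes raised the 18 adjacent members to 36, by construction. Chosen after the data were seen, alternatives for the 18 members with a distinct statocyst level gave 7 with a pseudocount of 5 CPM and 15 to 22 otherwise, and for the 5 members shared by olfactory organ and mantle skin gave 2 with that pseudocount, 3 after thinning and 5 or 6 otherwise. Of the log2 ratios of the 55 named members, 33 moved by more than counting error with a pseudocount of 5 CPM. With median-of-ratios size factors 22 did. With that pseudocount 7 fell under 4-fold, and 7 did so at the lower bound of their counting interval. None changed sign, which says little, since members were chosen at 4-fold or more. The planned protein identity alternatives were not run. No paired analysis was possible because the columns carry no replicate number and the eye has 1 library. Depth limits mantle skin and optic lobe most, where 1 read was worth 0.209 and 0.186 CPM.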
